A study of Caenorhabditis elegans with 2 samples.

Results

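The ceh genes are homeobox genes of the nematode Caenorhabditis elegans, and the binding of the forkhead-family transcription factor FKH-4 around them was read from ChIP-seq peak lists. Members were the protein-coding genes whose name begins with ceh- in the Ensembl WBcel235 annotation, without the Hox gene ceh-13. This rule gave 62 members among 19973 coding genes of the 6 nuclear chromosomes, and it used no measured value. Another 42 homeobox genes, named from general knowledge and including ceh-13, are set beside them where stated. The rule goes by name and not by place: the member ceh-23 lies 22451 bp beyond the Hox gene egl-5 on chromosome III.

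The study has 1 group of 2 biological replicates and no control sample among them. Both are whole hermaphrodite L1 larvae of strain OP100, genotype unc-119(tm4063) III; wgIs100, starved after bleaching for synchronisation and collected 6 h later. The transgene wgIs100 carries FKH-4 with a C-terminal GFP-FLAG tag, and chromatin was precipitated with an antibody against GFP. Binding of the tagged protein was thus measured in 1 transgenic strain, with no strain lacking the tag analysed here. Peaks pool all cells of the larva, so strong binding in few cells and weak binding in many cells cannot be told apart.

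Each peak has a summit, the position of its maximum, and a signal value set by the authors. The scale of that signal was not given in the sources used here, and it is comparable within a list only. The reproducible set (IDR, irreproducible discovery rate) held 1189 peaks with signals from 51.7 to 645. It is identical to the 1189 strongest peaks of the pooled relaxed list, which held 30000 peaks down to a signal of 15.9. Replicate 1's relaxed list held 30000 peaks and replicate 2's 22442. Relaxed lists include weak peaks by design, so ranks within a list (1 is the strongest) are given throughout. The deposited −log10 q values were at least 2.2 in the IDR set and went down to 0.0222 in the pooled relaxed list. A relaxed peak outside the IDR set does not by itself show binding. Read depth was not given in the sources used here. Positions are on ce11, counted from 1.

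Homeobox genes encode homeodomain transcription factors, which bind DNA at short sites that often contain a TAAT core and which set the identity of cells along the body and in the nervous system. In C. elegans most neuron types are thought to be specified by combinations of such factors, and many ceh genes act in a few neurons, in pharyngeal muscle or in epidermis. Forkhead factors bind sites with a TAAACA core through a winged-helix domain.

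The sequences that carry the strongest FKH-4 signal next to ceh genes are those around the IDR summits. Of the 6 such summits nearest to members, 5 are shown, and the window at ceh-5 is not printed here. For each of the 5, 101 bases of the ce11 plus strand are printed from the RefSeq copy of the WBcel235 genome, 50 on either side of the summit. The summit base is in capitals, as is the single homeodomain-type TAATTA found. The windows are chrII:6951551-6951651 at ceh-38, chrX:4653116-4653216 at ceh-1, chrX:14185723-14185823 at ceh-36, and chrIII:7834966-7835066 and chrIII:7837670-7837770 upstream of ceh-23. The genes ceh-38 and ceh-23 are on the plus strand, and ceh-1 and ceh-36 on the minus strand.
ceh-38: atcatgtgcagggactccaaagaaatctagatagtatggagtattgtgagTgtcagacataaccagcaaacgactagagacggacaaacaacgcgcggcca
ceh-1: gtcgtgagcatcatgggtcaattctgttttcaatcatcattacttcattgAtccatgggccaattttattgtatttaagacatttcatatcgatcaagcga
ceh-36: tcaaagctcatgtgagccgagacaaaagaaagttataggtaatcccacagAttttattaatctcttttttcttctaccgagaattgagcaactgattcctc
ceh-23, distal: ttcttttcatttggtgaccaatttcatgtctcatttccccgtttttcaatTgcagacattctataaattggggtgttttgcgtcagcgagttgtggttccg
ceh-23, proximal: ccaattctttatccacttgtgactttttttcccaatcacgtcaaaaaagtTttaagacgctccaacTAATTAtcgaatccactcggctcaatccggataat

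None of these windows, nor that of the remaining IDR summit near a member, held the forkhead core TAAACA on either strand. The same core lay in 72 of the 1189 IDR windows (6.06%) and in 2039 of the 30000 pooled windows (6.80%). The longer forkhead words GTAAACA and ATAAACA, which each contain that core, lay in 1.01% and 1.77% of IDR windows. The word GAGAGA, searched on both strands, was in 0 of the 6 member windows and in 232 of 1189 IDR windows (19.5%). TAATTA was in 1 of 6 and in 54 of 1189 (4.54%). Among the 101 pooled summits nearest to a member, TAAACA lay in 5 (4.95%, against 6.80% of all pooled windows), TAATTA in 6 (5.94%, against 4.22%) and GAGAGA in 6 (5.94%, against 7.62%). The G+C content of the 6 member windows ran from 35.6% (ceh-1) to 46.5% (ceh-38), and those of ceh-38 and ceh-5 (45.5%) were above the median of 44.6% over all IDR windows. A match is a description of the letters and does not show a binding site, nor does a missing match show that the factor does not bind there. None of the 6 member peaks held a copy of the 14-base word that recurred near the most IDR summits, with up to 1 mismatch allowed; 71 of the 1189 IDR peaks (5.97%) held it within 100 bp of the summit.

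Only ceh-38 among the ceh genes had a reproducible FKH-4 peak in its promoter. A promoter window reached 1000 bp upstream and 200 bp downstream from each transcription start site (TSS) of a coding transcript, and 1 of 62 members (1.61%) had an IDR summit there, against 953 of 19973 coding genes (4.77%). The list is small, so 1 gene more or fewer moves its share by as much as 1.61 percentage points. No set test was made, because the list was chosen with results known. The gene ceh-38 (WBGene00000459, chromosome II, 6951526 to 6955409, plus strand) encodes a ONECUT homeodomain protein of the CUT family, whose members act together in the expression of pan-neuronal genes. Its summit at 6951601 had a signal of 103 and ranked 383 in the pooled list. The peak ranked 382 in replicate 1, with a signal of 42.3, and 426 in replicate 2, with a signal of 58.7, so its place was alike in both. The summit fell in the annotated 5' UTR of ceh-38, 75 bp downstream of the first of its 11 coding TSS and 18 bp upstream of a later one. It also lay in the promoter window of malt-1, which runs away from ceh-38 on the minus strand and starts 301 bp from the summit, and the lists do not say which gene it belongs to. The other pooled summits within 8000 bp of the first ceh-38 TSS ranked 5600 and 16006.

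The member whose intron held an IDR summit was ceh-36. An IDR summit lay inside the gene body of 2 of 62 members (3.23%), ceh-38 and ceh-36, against 321 of 19973 coding genes (1.61%). The gene ceh-36 (WBGene00000457, X, 14183221 to 14186566, minus strand) is an Otx-type homeobox gene needed for the identity of the AWC and ASE chemosensory neurons. Its summit at 14185773 was intronic, 793 bp downstream of its TSS, with a signal of 74.2 and rank 678. Its rank was 854 in replicate 1 (signal 27.8) and 631 in replicate 2 (signal 47.0). Weaker summits lay 1594 bp (an exon, rank 9134) and 2215 bp (an intron, rank 18844) downstream of the same TSS. Its paralogue ceh-37, the Otx-type gene that acts in the AWB neurons, lies 10805 bp away on the same strand and its strongest peak, in an intron, ranked 18304.

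By the nearest TSS at any distance, 5 of 62 members (8.06%) received an IDR summit, against 1074 of 19973 coding genes (5.38%). The additional genes were ceh-1, ceh-5 and ceh-23, all of the large Antennapedia-related and NK group of homeobox genes. The peak at ceh-1 (WBGene00000428, X, 4653167 to 4654157, minus strand) was the second strongest near any member. Its summit at 4653166 had a signal of 81.6 and rank 582. It lay between genes, 1 bp past the 3' end of the annotated gene and 991 bp from its TSS, and the next coding gene on that side, ent-5, is 3969 bp away. The peak ranked 283 in replicate 1 (signal 49.2) and 1355 in replicate 2 (signal 29.1), so it was among the 1189 strongest of replicate 1 and not of replicate 2. The promoter window of ceh-1 itself held 1 relaxed summit, 130 bp upstream of the TSS, at rank 28000.

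The intergenic stretch upstream of ceh-23 held a pair of IDR peaks, and a peak in its promoter window lay just below the IDR limit. The gene ceh-23 (WBGene00000446, III, 7839592 to 7841491, plus strand) acts in the AIY interneurons and other neurons. Its upstream intergenic gap to kcmf-1 measures 7097 bp. IDR summits lay 4576 bp upstream of its TSS (7835016, signal 62.4, rank 888) and 1872 bp upstream (7837720, signal 52.1, rank 1167). The summit 468 bp upstream, inside the promoter window, had a signal of 50.3 and rank 1250, outside the IDR set, whose weakest member has 51.7. The weaker summits of ceh-23 ranked 10138 (1127 bp upstream), 16381 (1677 bp downstream of the TSS, in an exon) and 25709 (268 bp upstream). The replicates differed here. The distal peak ranked 2655 in replicate 1 and 817 in replicate 2, the proximal one 5329 in replicate 1 and 1028 in replicate 2, and the promoter peak 1572 in replicate 1 and 1315 in replicate 2. The Hox gene mab-5, whose record ends at 7783454 on the same chromosome, had an IDR summit at 7784428 with a signal of 78.6.

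The remaining IDR summit nearest to a member, at ceh-5 (WBGene00000430, I, 9727169 to 9728034, plus strand), lay inside other genes. At 9725424, 1745 bp upstream of the ceh-5 TSS, it fell in the 3' UTR of eat-16 and in an intron of ocrl-1, whose record runs across the ceh-5 TSS on the opposite strand. It had a signal of 71.5 and rank 726, and ranked 1069 in replicate 1 (signal 25.6) and 618 in replicate 2 (signal 47.5). The replicate 1 peak has its summit at 9725572 and also matches a weaker pooled summit at 9725639 (rank 5288). Another IDR peak in the same stretch, at rank 553, is nearer to the TSS of eat-16. With summits inside other coding genes set aside, a rule added after seeing the data, 4 members were left as nearest to an IDR summit, without ceh-5.

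**Figure D1:**
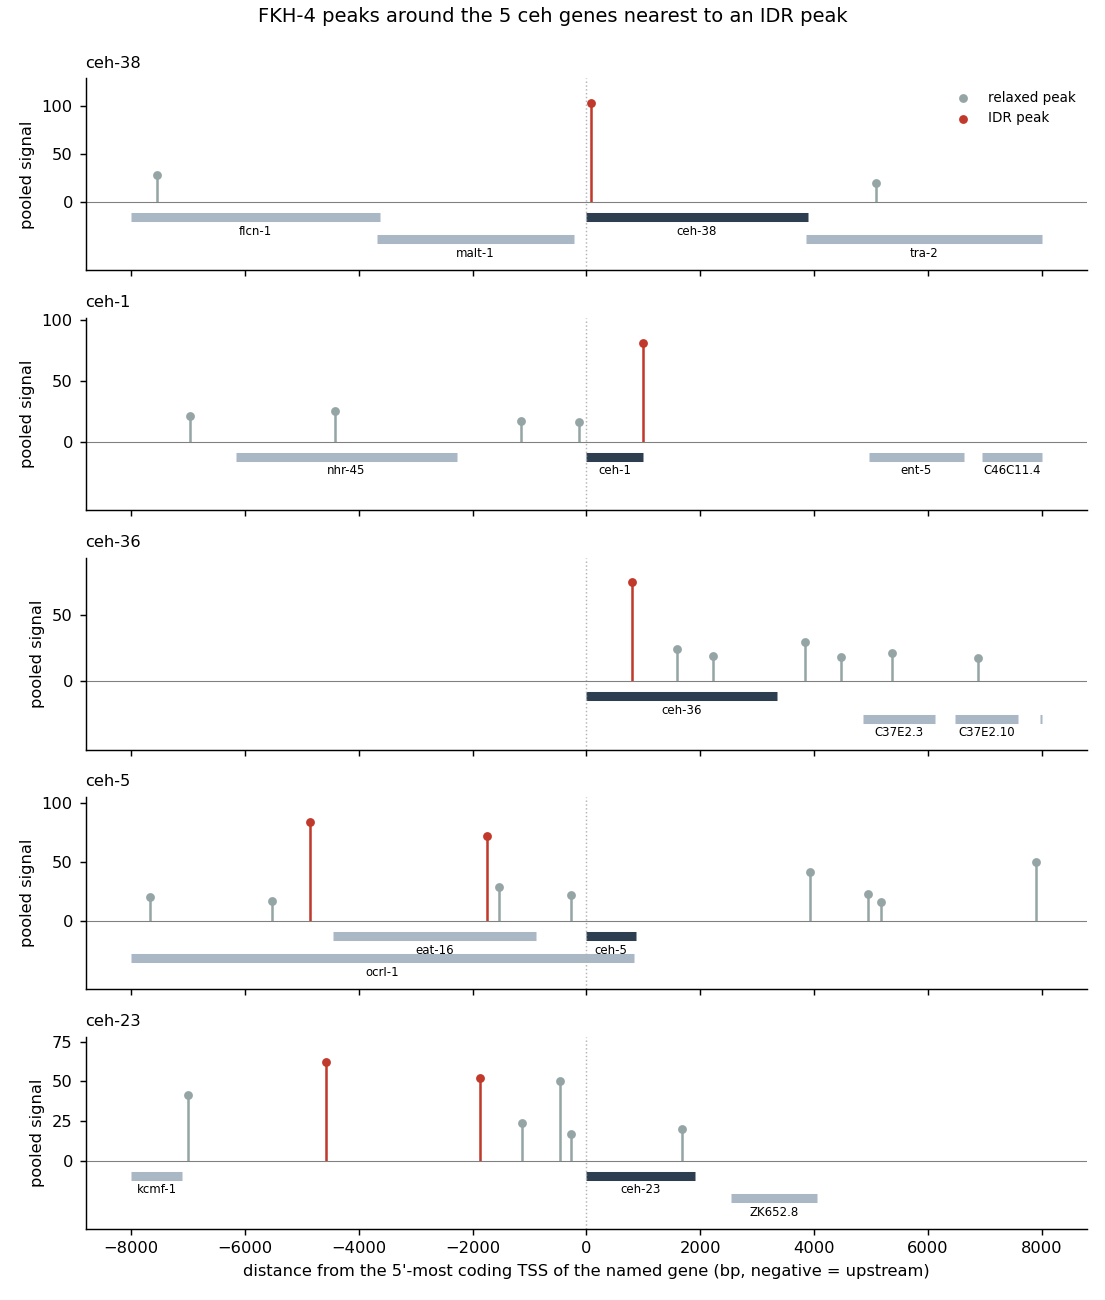
Pooled peaks (vertical lines, height = the authors' signal) around ceh-38, ceh-1, ceh-36, ceh-5 and ceh-23, by distance from the 5'-most coding TSS of each in bp. Red marks IDR peaks and grey the other relaxed peaks, and bars below are coding genes, on the same strand (upper) or the opposite strand (lower). The IDR peak is at the start of ceh-38, inside ceh-36, at the 3' end of ceh-1, inside eat-16 and ocrl-1 upstream of ceh-5 (the second red line there is the eat-16 peak at rank 553), and in the intergenic stretch upstream of ceh-23.

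In the pooled relaxed list, the share of ceh genes with a promoter peak was close to that of all coding genes, and their peaks had a lower median signal. Here 25 of 62 members (40.3%) had a summit in the promoter window, against 8155 of 19973 coding genes (40.8%). Their strongest promoter peaks had a median rank of 14281, against 10614 for all coding genes with one, and a median signal of 21.1 against 23.2. Among the 5000 strongest pooled peaks, 5 members (8.06%) had a promoter summit, against 12.8% of coding genes. Their promoter windows together held 336 pooled summits per Mb, against 355 per Mb for all coding genes, and 10.8 IDR summits per Mb, against 26.6. The single replicates differed. In replicate 1's relaxed list 26 members (41.9%) had a promoter summit, against 39.8% of coding genes, and in replicate 2's 15 members (24.2%), against 33.5%. With the 22000 strongest peaks of each list, the counts were 20 members in replicate 1 and 15 in replicate 2. The share of all coding genes at this cut was not counted, so nothing particular to the members is read from these counts.

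After ceh-38 and ceh-23, the strongest promoter peaks were at ceh-20, ceh-39 and ceh-45. Their deposited −log10 q values were 0.686, 0.475 and 0.432, against at least 2.2 in the IDR set, and those of the peaks ranked below them were lower. The gene ceh-20 encodes a PBC-class homeodomain protein, a partner of Hox proteins. Its summit lay 929 bp upstream of the TSS (III, 6978955, rank 2216), and the peak ranked 1241 in replicate 2 and had no counterpart within 200 bp in replicate 1's list. The gene ceh-39, a ONECUT gene that takes part in counting X chromosomes in sex determination, showed the opposite case. Its summit 264 bp upstream (X, 1856436, signal 34.9, rank 2721) ranked 897 in replicate 1 and had no counterpart within 200 bp in replicate 2. Replicate 2's own list did hold a summit in the ceh-39 promoter window. With a match distance of 500 bp the pooled ceh-39 peak had a counterpart in both lists. The goosecoid-related gene ceh-45 had 3 summits in its windows, of which the strongest, in an intron 9 bp upstream of an internal TSS, had rank 2902, with 2952 in replicate 1 and 8575 in replicate 2. The next ranks belonged to ceh-16, the engrailed homologue of seam cells (8037), ceh-100 (8116), ceh-57 (10744), ceh-91 (11777) and ceh-5 (11952). The ceh-100 summit is also in the window of lips-15.

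**Figure D2:**
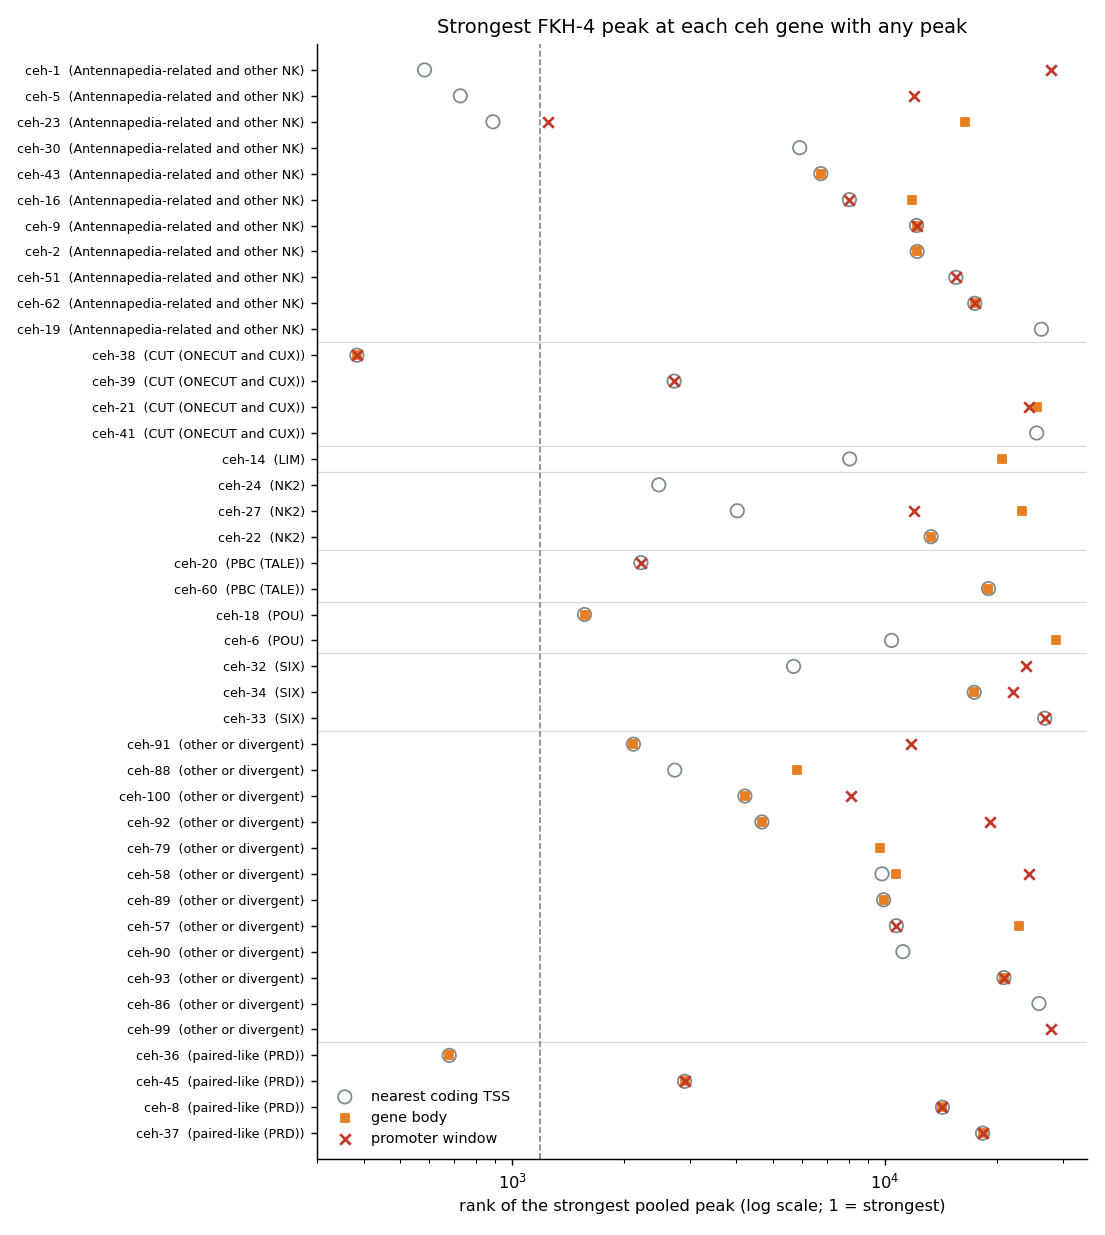
Rank in the pooled list (log scale, 1 is the strongest peak) of the strongest peak of each of the 42 members with any, by homeobox class, read as nearest coding TSS (open circles), gene body (squares) and promoter window (crosses). The dashed line is the end of the IDR set at rank 1189; the promoter cross of ceh-38 alone lies left of it, and that of ceh-23 just right of it at 1250.

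Inside gene bodies, 28 of 62 members (45.2%) had a pooled relaxed summit, against 9512 of 19973 coding genes (47.6%). Among the 5000 strongest pooled peaks, 7 members (11.3%) had a gene body summit, against 9.30% of coding genes. The density was 249 pooled summits per Mb of member gene bodies, against 297 per Mb of all coding gene bodies. For IDR summits it was 9.21 per Mb, which rests on 2 summits, against 5.71 per Mb. Members with a pooled body summit were longer, with a median of 3782.5 bp, against 1862 bp for members without. The same contrast was not computed over all coding genes, so nothing particular to the members is read from it. After ceh-38 and ceh-36 the strongest were at ceh-18, ceh-91, ceh-45, ceh-100 and ceh-92. The POU gene ceh-18, which acts in the gonadal sheath, had an intronic summit 1438 bp upstream of its nearest TSS and 3657 bp downstream of the first (X, 3854140, signal 44.5, rank 1564). It ranked 1110 in replicate 2 and had no counterpart within 200 bp in replicate 1. The coding exon summit of ceh-91 (III, 11618669, signal 38.7, rank 2116) ranked 923 in replicate 1 and 10740 in replicate 2. The summits of ceh-100 (12593133, rank 4214) and ceh-92 (11581880, rank 4681) were in coding exons too. The next were at ceh-88 (rank 5824), ceh-43, the Distal-less homologue (6737), and ceh-79 (9731). The most summits in a body were 6, in ceh-91, followed by 4 in ceh-92 and 4 in ceh-100, the longest member with 21503 bp.

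As the nearest TSS, 39 of 62 members (62.9%) took at least 1 pooled relaxed summit, against 12929 of 19973 coding genes (64.7%). The share was higher in members than in coding genes in the list of each replicate, with 77.4% against 65.85% in replicate 1 and 62.9% against 54.1% in replicate 2. It was also higher among the 5000 strongest pooled peaks, with 15 members (24.2%), against 18.2% of coding genes. The strongest nearest summit had a median rank of 8053 in members with one, against 10289 in all coding genes with one. None of these differences was tested. The 39 members took 101 of the 30000 pooled summits. Of the 101, 6 were IDR peaks (5.94%), against 3.96% of all pooled summits. Their median signal of 20.7 stood beside 20.8 for all, and 53 of 101 (52.5%) lay upstream of the TSS, against 47.8% of all. By place, 42 summits lay inside the member itself, 15 inside another coding gene and 44 between coding genes. Members have longer upstream gaps, with a median of 2426 bp from the first TSS to the next gene record, against 1161 bp for all coding genes. The share of intergenic summits outside promoter windows was 28.7% (29 of 101), against 22.6% of all. After those of ceh-1 and ceh-23, the strongest of the 29 belonged to ceh-24, an NK-2 gene of pharyngeal and vulval muscle (2156 bp upstream, rank 2475), ceh-27 (1551 bp downstream of its nearest TSS, rank 4020), ceh-32, a sine oculis-type gene (1883 bp upstream, rank 5693), ceh-30 (3201 bp downstream, rank 5913), ceh-45 (2230 bp upstream, rank 7690) and ceh-14, a LIM gene of several neurons (2012 bp upstream, rank 8053). Intergenic here leaves non-coding genes out of account, and the ceh-27 summit lies in an exon of the non-coding RNA gene F46F3.17. The nearest gene is only a position and does not show that a peak acts on it.

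**Figure D3:**
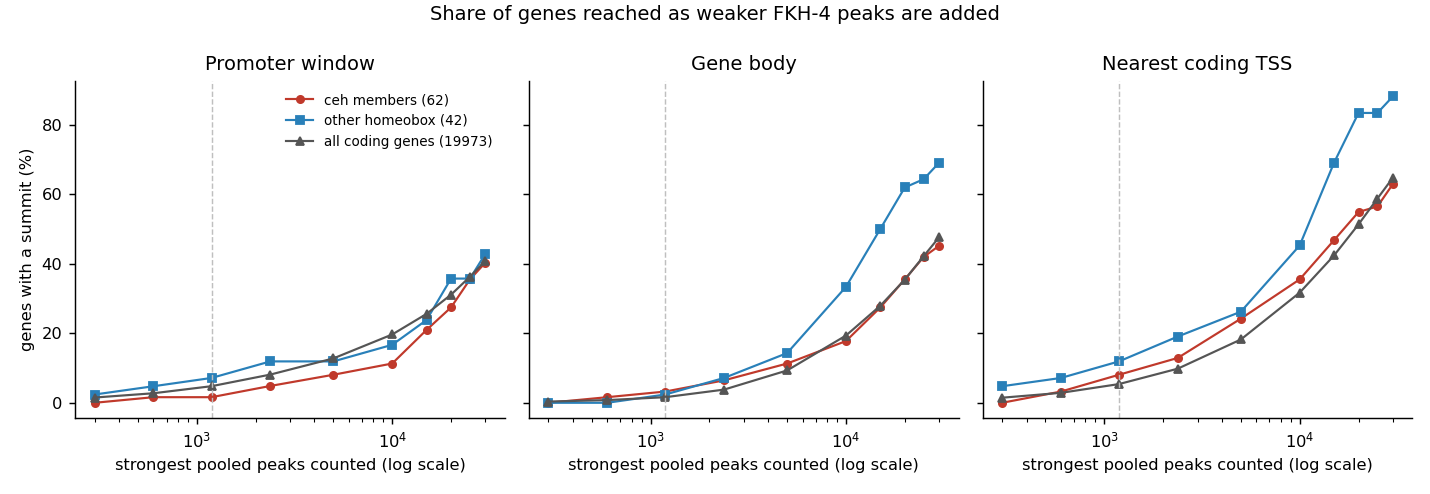
Share of genes (%) with a summit in the promoter window (left), gene body (middle) or as nearest coding TSS (right) as more of the strongest pooled peaks are counted (log scale), for the 62 ceh members, the 42 other homeobox genes and all 19973 coding genes. The dashed line is the IDR set of 1189 peaks; there the members stand at 1.61%, 3.23% and 8.06%, and over all 30000 peaks at 40.3%, 45.2% and 62.9%, beside 40.8%, 47.6% and 64.7% of coding genes.

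Few of the members' strongest promoter peaks had a counterpart within 200 bp in both replicates' lists, and the difference from other genes was not tested. Of the strongest promoter peaks of the 25 members with one, 4 had a counterpart within 200 bp in each replicate's list, at ceh-38, ceh-23, ceh-45 and ceh-57, against 40.3% for all coding genes with a promoter summit. A further 13 were in replicate 1's list only, 7 in replicate 2's only and 1 in neither. The single one in neither, at ceh-32, had rank 23981. The count of 4 depends on the match distance: it was 3 at 100 bp and 6 at 500 bp, where ceh-39 and ceh-51 were added. It also follows only the strongest pooled summit. By each replicate's own list, ceh-8, ceh-18, ceh-39, ceh-51 and ceh-76 had a promoter summit in both too. The share of coding genes was not counted for these readings. Over all 101 nearest summits, 31 (30.7%) were in both replicates' lists, against 29.3% of the 30000. Across those 31, Spearman's rho of the replicates' signals was 0.45, as it was across all 8800 shared pooled summits. These are correlations across peaks of the same pair of libraries. All 6 IDR summits near members were in both lists.

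Taking the 1189 strongest peaks of each replicate separately changed which members had one. The genes ceh-38, ceh-36 and ceh-5 were nearest to such a peak in both replicates. In replicate 1 the others were ceh-1, ceh-39 and ceh-91, and in replicate 2 they were ceh-23 and ceh-18. In the promoter window replicate 1 had ceh-38 and ceh-39, and replicate 2 had ceh-38.

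**Figure D4:**
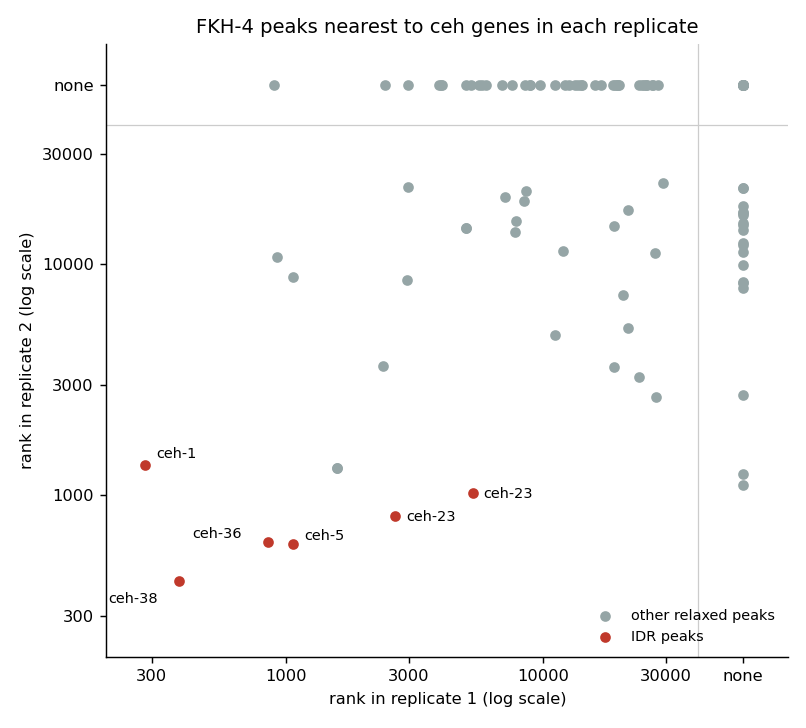
Rank in replicate 1 (horizontal) and replicate 2 (vertical), both log scales, of each pooled summit nearest to a ceh gene; "none" marks summits with no counterpart within 200 bp. The 6 IDR summits (red) are in both lists, with ceh-38 at 382 and 426 and the distal ceh-23 summit at 2655 and 817, while most other summits (grey) have a counterpart in 1 list or in neither.

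By homeobox class, the strong peaks were spread over the CUT, paired-like and Antennapedia-related and NK genes. Of the 42 members given a class, 18 had a pooled promoter summit, and of the 20 other or divergent members, 7 did, beside 40.8% of all coding genes. The classes are small, and nothing particular to a class is read from these counts. All 5 members nearest to an IDR summit had a class, while the best rank among the 20 others was 2116, at ceh-91. The 6 CUT genes, all of the ONECUT type, ranged from ceh-38 at rank 383 to ceh-48 and ceh-49, which had no pooled summit by any reading. The X-linked ONECUT neighbours ceh-41, ceh-21 and ceh-39 had best ranks of 25574, 24379 and 2721. The ceh-41 summit lies in an intron of ceh-21 and has no counterpart in either replicate's list. The ceh-21 summit lies in an exon of T26C11.9, whose TSS is the nearest. All 3 sine oculis-type genes had a promoter summit, at ranks 22062 (ceh-34, of pharyngeal neurons), 23981 (ceh-32) and 26869 (ceh-33). Of the 3 PBC genes, ceh-20 had a promoter summit, ceh-60 had summits in its body only (best rank 18988), and ceh-40 had none. The POU genes ceh-6 and ceh-18 had no pooled summit in a promoter window. In the replicates' own lists, ceh-18 had a promoter summit in both and ceh-6 in replicate 1's. Of the 4 NK-2 genes, ceh-27 had a promoter summit (rank 11986), ceh-22, a pharyngeal muscle regulator, had its best summit in its body (rank 13313), ceh-24 had a distal one and ceh-28 had none.

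In all, 42 members had a pooled summit by at least 1 of the readings, and 20 of 62 (32.3%) had none, against 28.7% of coding genes. The 20 were ceh-7, ceh-10, ceh-12, ceh-17, ceh-28, ceh-31, ceh-40, ceh-48, ceh-49, ceh-53, ceh-54, ceh-63, ceh-74, ceh-75, ceh-76, ceh-81, ceh-82, ceh-83, ceh-84 and ceh-87. Among them are ceh-10 and ceh-17, paired-like genes of the AIY, CAN and ALA neurons, and ceh-12, a gene of ventral cord motor neurons. This holds for the pooled list only. In replicate 1's relaxed list ceh-7, ceh-63, ceh-76, ceh-82 and ceh-87 had a promoter summit, and ceh-76 had one in replicate 2's too. As nearest TSS, 48 of 62 members took a summit of replicate 1's list (77.4%, against 65.85% of coding genes). More of the 20 thus have a summit there, and which ones was not listed. The neighbours ceh-81, ceh-82 and ceh-83 lie 267 and 424 bp apart on chromosome II. Of the neighbouring paralogues ceh-30 and ceh-31, the BarH-type gene ceh-30 took 2 summits (best rank 5913), and ceh-31, 3096 bp away, took none. The summit at rank 5913 (X, 3066794) lies in the gap between these genes, 3201 bp from the ceh-30 TSS. The ceh-31 record begins, on the minus strand, at 3070422. That summit goes to ceh-30 by the nearest-TSS rule alone. On chromosome II, ceh-57 and ceh-58 share a summit, which lies in an exon of ceh-58 and in the promoter window of ceh-57.

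In 5 of 6 readings of the IDR set and the pooled relaxed list, a lower share of ceh genes than of the other homeobox genes had a peak, and these differences were not tested. In the IDR set 1.61% of ceh members had a promoter summit, against 3 of 42 other homeobox genes (7.14%). A gene body summit was found in 3.23% of ceh members, against 1 of 42 (2.38%), the single one of the 6 with a higher share in the ceh genes. As nearest TSS, 8.06% of ceh members took an IDR summit, against 5 of 42 (11.9%). The promoter summits of the other homeobox genes were at cux-7 (rank 1), dsc-1 (rank 455) and mab-5 (rank 624), and the nearest-TSS reading added zag-1 (rank 231) and unc-62 (rank 804), a gene for a TALE partner of PBC proteins. The cux-7 summit also lies in the windows of lig-4 and another gene. In the pooled relaxed list 40.3% of ceh members had a promoter summit, against 18 of 42 (42.9%), 45.2% had a gene body summit, against 29 of 42 (69.05%), and 62.9% were the nearest TSS of one, against 37 of 42 (88.1%). Gene bodies differ in length, with a median of 2735 bp for ceh members, 4338.5 bp for the other homeobox genes and 2027 bp for all coding genes. Upstream gaps differ too, with a median of 2426 bp for ceh members, 8570.5 bp for the other homeobox genes and 1161 bp for all coding genes. How far these lengths bear on the shares was not tested. Per Mb of gene body, ceh members held 249 pooled summits, against 354 for the other homeobox genes, and 9.21 IDR summits, against 8.13. In replicate 2's relaxed list a promoter summit was found in 24.2% of ceh members, against 21.4% of the other homeobox genes, while in replicate 1's it was 41.9%, against 45.2%.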

How the data were processed

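Peak lists of 2 replicates and of both pooled were used on ce11, whose chromosome lengths match the WBcel235 reference. Sonicated chromatin was used, per the labels. Per the deposited sample listings, each relaxed list derives from alignments plus a further file whose kind they do not state, and the IDR set from the relaxed lists. The labels name a possible control in another experiment (not analysed here). Aligner, peak caller and IDR threshold were not given in the sources used here. The authors' deposited signal, never negative, and −log10 q values (deposited, from 0.0222 to 3.3 in the pooled list) ranked or described peaks within a list. The deposited ce10 lists were not used.

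Summits were placed in Ensembl release 115 genes with python 3.11.15 and pandas 2.3.3. A replicate peak matched a pooled one within 200 bp, so a replicate peak can match more than 1 summit. Interval code was tested on simulated data. Window motifs were searched 50 bp on either side of summits. No test was made: the design has 1 group, and members and lists were chosen with earlier results of these data known. Named genes are members with an IDR summit, the 10 of highest rank in promoter windows and the 10 in gene bodies, the 2 with the most and the 2 with the fewest body summits (many tie at 0, so all members without a summit are listed), the CUT, PBC, POU and sine oculis-type members, and other homeobox genes with an IDR summit in a promoter window or gene body. Others, namely ceh-14, ceh-22, ceh-24, ceh-27, ceh-30, ceh-37, ceh-58, zag-1 and unc-62, were chosen after their values were seen. Homeobox classes come from general knowledge.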

Additional observations from a re-analysis of the deposited data

How the results depend on the processing

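The counts of members are small, and 26 of 41 settings left a value within 1.5 times the reported one. The member with an IDR promoter summit, ceh-38, stayed in the promoter count in each of its 11 settings. It could not drop out of those that only add peaks or windows. Nor could it drop out of the 594 strongest IDR peaks, given its rank of 383. Its ranks of 382 in replicate 1 and 426 in replicate 2 fix the settings by replicate. Its summit, 18 bp upstream of its nearest TSS and 75 bp downstream of the first, fixes the remaining window settings. The 11 settings thus add no support beyond these values. The settings with pooled or single-replicate peaks do not count IDR summits. The ceh-38 window is shared with malt-1. With shared windows set aside (chosen after seeing the data), 20 members without ceh-38 had a pooled relaxed promoter summit. With more or other peaks the promoter count of 1 was 3 (the 2378 strongest pooled peaks; 4.84% of members, against 8.11% of coding genes), 5 (the 5000 strongest; 8.06% against 12.8%) or 3 (the wider window of 2000 and 500 bp), and from 1 without replicate 1 to 2 without replicate 2. The gene body count of 2 was 1 with the 594 strongest IDR peaks, 4 with 2378 pooled peaks (6.45% against 3.79%), 7 with 5000 (11.3% against 9.30%), 1 outside promoter windows, and 3 without either replicate. The nearest-TSS count of 5 was 2 with 594 peaks, 8 with 2378 (12.9% against 9.81%), 15 with 5000 (24.2% against 18.2%), 5 without replicate 1 and 6 without replicate 2. The count of members with a pooled relaxed promoter summit, 25, was 14 with the narrower window (500 and 100 bp), 15 with the 22000 strongest of replicate 2, and from 15 without replicate 1 to 26 without replicate 2. The share of coding genes with an IDR promoter summit, 4.77%, was 11.7% among the 8155 genes with any pooled promoter summit. Counting the TSS of every transcript, a setting chosen after seeing the data, gave 956 coding genes and the same member. Where no share of coding genes is given here or above, it was not counted for that setting. Such counts describe the members only. The causes were not tested. No paired analysis was possible because there is 1 group. Depth is unknown, so an absent peak does not show absent binding.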
